A study of Mus musculus with 12 samples.

Results

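The 9 genes described here encode the peroxisome proliferator-activated receptors (*Pparg*, *Ppara* and *Ppard*), the retinoid X receptors (*Rxra*, *Rxrb* and *Rxrg*) and 3 CCAAT/enhancer-binding proteins (*Cebpa*, *Cebpb* and *Cebpd*). They were chosen by name as the receptor and C/EBP factors of fat cells, and each was found under 1 gene identifier among the 55401 genes counted. All 9 passed the filter on low counts, as did 16540 genes in all. RNA was sequenced from subcutaneous white adipose tissue (scWAT) taken from 12 female mice on a C57BL/6J background that were 16 weeks old at the start. They were housed 1 to a cage, acclimated for 1 week at 30°C and then kept for 1 more week at 30°C (thermoneutral) or at 8°C (cold exposed). At each temperature, 3 mice were *Jmjd1a* +/+ (wild-type) and 3 were *Jmjd1a* HY/HY, and each mouse gave 1 library. The HY allele is a knock-in, present in every cell of the body and taken here from 1 of the study's mouse lines, that encodes JMJD1A with the H1122Y substitution and leaves this histone H3 lysine-9 demethylase without catalytic activity. The study asked how scWAT responds to cold exposure with and without that activity.

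PPARs are nuclear receptors that bind fatty acids and their derivatives, and they act on DNA as pairs with an RXR, the retinoid receptor that is also the partner of the retinoic acid, thyroid hormone, vitamin D and liver X receptors. PPARγ is the factor without which fat cells do not form, PPARα drives fatty acid oxidation and is abundant in brown fat, and PPARδ is found in most tissues. In the cascade of fat cell formation C/EBPβ and C/EBPδ act early and turn on PPARγ and C/EBPα, which then keep each other and the fat cell's genes active.

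The libraries held 13592629 to 26352081 counted read pairs, with a median of 18130585. *Kdm3a*, the gene of JMJD1A, gave 49.3 ± 11.2 CPM, the read pairs of a gene scaled to the effective size of its library, in thermoneutral and 39.9 ± 3.77 in cold exposed wild-type mice, and 45.5 ± 7.67 and 44.7 ± 1.4 CPM in HY/HY mice (SD, n = 3). A single-residue substitution leaves the RNA in place, so this level does not check the genotype. The fat cell markers *Adipoq*, *Plin1*, *Cidec*, *Lep*, *Cfd*, *Adrb3*, *Pnpla2* and *Lipe* summed to 13400 to 28600 CPM. The beige fat cell markers *Ucp1*, *Cidea*, *Elovl3*, *Dio2*, *Cox7a1* and *Otop1* summed to 44.7 to 177 CPM at 30°C, to 7740 to 8710 CPM in the cold in wild-type mice and to 427 to 1520 CPM in HY/HY mice. Libraries that stood apart were 2 thermoneutral ones. Replicate 2 of the wild-type mice at 30°C had 1430 CPM of skeletal muscle markers against 4.23 to 24.2 CPM in the other 11 libraries. Replicate 3 of the HY/HY mice at 30°C had the lowest mammary and progenitor marker sums (580 and 427 CPM against 1470 and 1550, and 837 and 840 CPM, in its group), 16.8% of counts from mitochondrial DNA against 9.32% and 9.76%, and the smallest share of read pairs counted (36.5%). Without it the genes called for cold in HY/HY mice were 548 higher and 277 lower in place of 30 and 12.

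Set on a scale that allows genes to be compared, CPM per kilobase of exon, *Cebpa* and *Pparg* were the leading members of the 9 in every group. *Cebpa* ran at 158 CPM per kilobase in wild-type mice at 30°C, 195 at 8°C, 198 in HY/HY mice at 30°C and 233 at 8°C. *Pparg* ran at 113, 95.2, 107 and 105 in the same order. The lowest member in every group was *Ppara*, at 0.368, 2.9, 0.256 and 0.655 CPM per kilobase. *Rxra* held 20.1 to 29.8, *Rxrb* 12.8 to 17.8 and *Rxrg* 5.33 to 11.1 CPM per kilobase across the group means, so the RXR genes kept this order in all 4 groups. Among the early C/EBP genes, *Cebpb* moved from 15.5 CPM per kilobase in wild-type mice at 30°C to 61.7 at 8°C, and stood at 16.5 and 16.8 in HY/HY mice, while *Cebpd* stayed between 6.07 and 10.1. The bulk tissue holds fat cells together with blood vessel, immune, progenitor and mammary cells, and fewer cells of a type cannot be told apart from less RNA per cell.

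**Figure D1:**
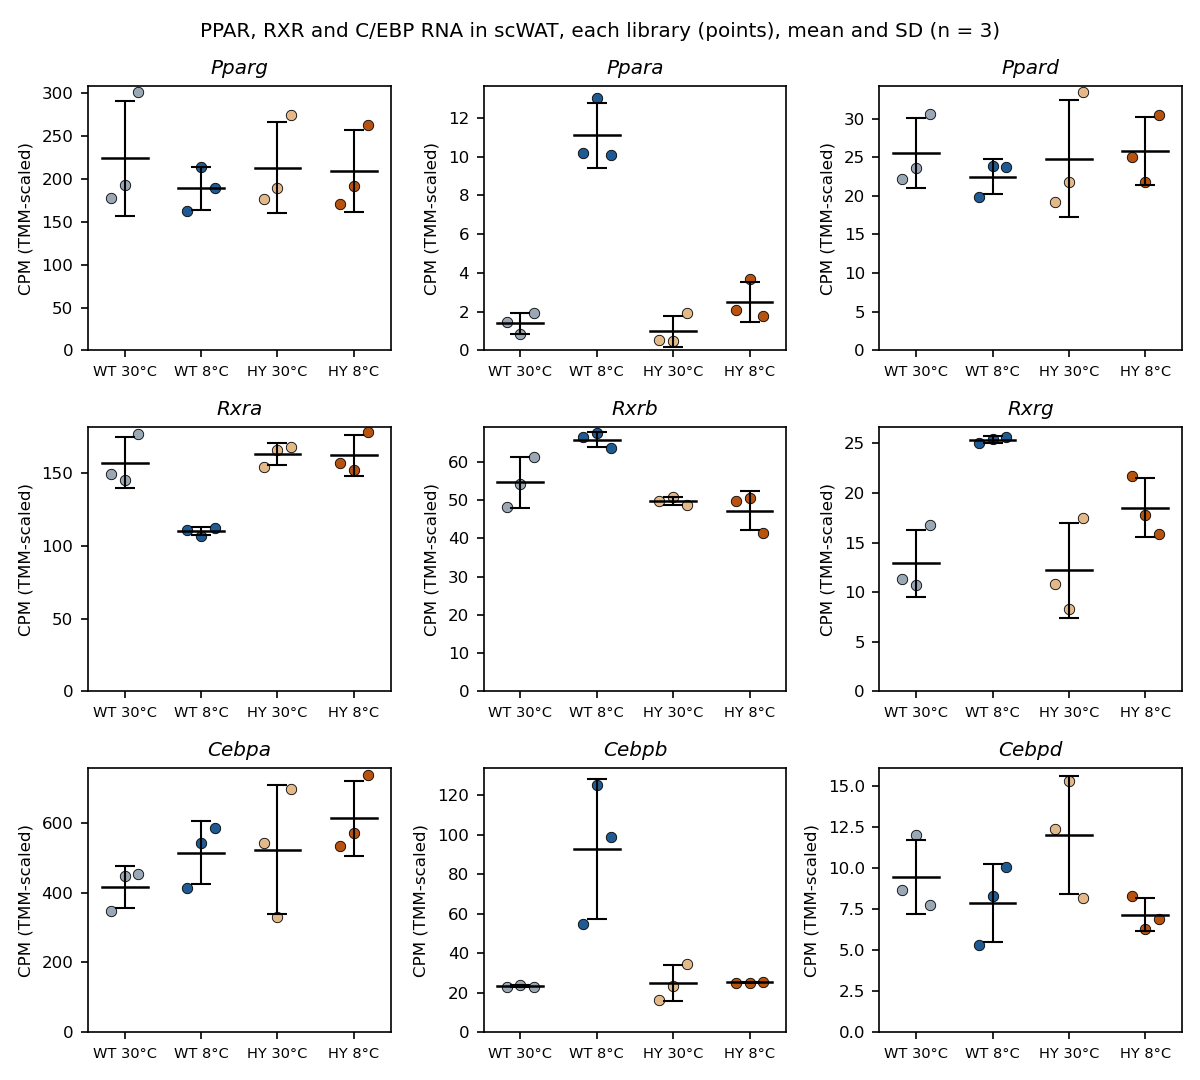
RNA level in CPM (linear axes from 0) of the 9 genes in each of 12 libraries (points), with the mean (bar) and SD (n = 3) of wild-type (WT) and *Jmjd1a* HY/HY (HY) mice at 30°C and 8°C. *Cebpb* lies between 54.7 and 125 CPM in the wild-type mice at 8°C and at or below 34.4 CPM in the other 9 libraries, and *Rxra* lies between 107 and 112 CPM there and at or above 145 CPM elsewhere.

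The first comparison asked how the 9 genes responded to cold exposure in wild-type scWAT. *Ppara* rose 7.96-fold, *Cebpb* 3.98-fold and *Rxrg* 1.97-fold, and *Rxra* fell to 0.7 times its level at 30°C. These 4 of 9 genes passed an adjusted p of 0.05 in edgeR's quasi-likelihood test over all 16540 genes, of which 24.1% passed. By direction, 3 of 9 rose against 13.2% of all genes, and 1 fell against 10.9%. The median log2 fold change of the 9 was 0.27, beside −0.07 over all genes tested. *Pparg*, *Ppard*, *Cebpa* and *Cebpd* did not pass, nor did *Rxrb*.

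*Ppara* had 1.49, 0.829 and 1.91 CPM in the wild-type libraries at 30°C and 10.2, 13 and 10.1 CPM at 8°C, from 23 to 36 and 138 to 173 read pairs. All 3 cold exposed libraries lay above all 3 thermoneutral ones, with a log2 fold change of 2.99 (SE 0.48, 95% interval 1.95 to 4.03, edgeR adjusted p = 0.00115). *Cebpb* had 23, 23.9 and 23 CPM at 30°C and 54.7, 125 and 98.6 CPM at 8°C. Its groups did not overlap either, the spread was far wider at 8°C (SD 35.4 against 0.498 CPM), and the log2 fold change was 1.99 (SE 0.29, interval 1.37 to 2.62, edgeR adjusted p = 0.000597).

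*Rxrg*, the RXR known best from muscle, had 11.3, 10.7 and 16.8 CPM at 30°C and 25, 25.5 and 25.7 CPM at 8°C. The cold exposed libraries were all higher, with a log2 fold change of 0.98 (SE 0.25, interval 0.43 to 1.53, edgeR adjusted p = 0.0162). Without the muscle-rich thermoneutral library the estimate was 0.86 with an edgeR adjusted p of 0.0645, and without replicate 1 at 30°C it was 0.90 with an adjusted p of 0.0583. *Rxra* had 149, 145 and 177 CPM at 30°C and 111, 107 and 112 CPM at 8°C. It was lower in all 3 cold exposed libraries, with a log2 fold change of −0.52 (SE 0.11, interval −0.76 to −0.28, edgeR adjusted p = 0.00639).

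*Rxrb* came nearest of the others, with 48.2, 54.2 and 61.3 CPM at 30°C and 66.4, 67.4 and 63.6 CPM at 8°C. The groups did not overlap, which held for 5 of the 9 genes and for 43.4% of all genes, and the log2 fold change was 0.27 (SE 0.11, interval 0.04 to 0.50, edgeR adjusted p = 0.0851). An exact permutation test of 3 libraries against 3 cannot give a two-sided p below 0.1, and it gave 0.1 for each of these 5 genes.

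The promoter windows of the 3 members that rose are shown to set their sequence beside that rise. Each is the run of 250 bases just upstream of a RefSeq transcription start (GRCm38.p6, the mm10 build, + strand), 5′ to 3′, with capitals where a script found TGACG (the core of the cAMP response element), TTGCNNAA (a C/EBP site) or AGGTCA (the unit that nuclear receptor sites repeat) on either strand. *Cebpb* is at chr2:167688665-167688914, *Ppara* at chr15:85735526-85735775, and *Rxrg* has starts with windows at chr1:167598112-167598361 and chr1:167618015-167618264.
Cebpb: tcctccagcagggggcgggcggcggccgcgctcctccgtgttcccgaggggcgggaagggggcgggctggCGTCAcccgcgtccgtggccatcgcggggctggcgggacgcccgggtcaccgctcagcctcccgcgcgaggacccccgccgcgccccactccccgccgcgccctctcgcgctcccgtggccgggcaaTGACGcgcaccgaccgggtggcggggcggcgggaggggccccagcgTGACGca
Ppara: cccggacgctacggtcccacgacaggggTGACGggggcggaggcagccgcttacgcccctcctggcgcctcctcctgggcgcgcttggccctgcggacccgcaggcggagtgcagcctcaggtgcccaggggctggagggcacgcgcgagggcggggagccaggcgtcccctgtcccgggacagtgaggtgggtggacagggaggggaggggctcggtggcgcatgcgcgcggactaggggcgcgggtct
Rxrg first start: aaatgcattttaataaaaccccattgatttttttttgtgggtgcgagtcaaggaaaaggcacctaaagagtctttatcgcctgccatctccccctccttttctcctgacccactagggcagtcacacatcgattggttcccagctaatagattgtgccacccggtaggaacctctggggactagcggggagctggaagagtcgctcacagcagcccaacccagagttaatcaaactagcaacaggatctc
Rxrg second start: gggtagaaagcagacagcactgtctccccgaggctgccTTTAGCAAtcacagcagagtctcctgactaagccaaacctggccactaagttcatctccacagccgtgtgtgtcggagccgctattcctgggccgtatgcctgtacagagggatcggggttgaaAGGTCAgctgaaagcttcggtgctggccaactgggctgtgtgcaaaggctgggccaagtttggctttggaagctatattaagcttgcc

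The *Cebpb* window is 81.6% G and C and the *Ppara* window 76.4%, against a median of 52.4% over all 32851 windows, while the *Rxrg* windows are 49.2% and 55.2%. TGACG occurs 3 times in the *Cebpb* window and once in that of *Ppara*, and among the 13 windows of 8 of the genes (*Cebpd* had none in the table) it was otherwise found only in that of *Rxrb*. It occurs in 17.8% of all windows. The whole palindrome TGACGTCA, which contains TGACG, was in 0 of the 13 windows and 1.55% of all. The GC box GGGCGG, left in lower case, occurs 5 times in the *Cebpb* window and 2 times in that of *Ppara*, and it was in 8 of the 13 windows and 32.7% of all. TTGCNNAA was in 2 of 13 (*Pparg* and the second *Rxrg* start) and 9.56% of all windows. AGGTCA was in 4 of 13 (*Pparg*, *Rxra* and the second *Rxrg* start) and 14% of all. Neither DR1, the PPAR and RXR site made of 2 copies of AGGTCA spaced by 1 base, nor ACANNNTGT, a form of the glucocorticoid receptor's site, was in any of the 13, and they were in 0.0335% and 5.84% of all windows. These matches describe letters only, on both strands, within 250 bases of a start.

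The remaining wild-type genes did not pass the test, and their groups overlapped. *Pparg* had 178, 193 and 301 CPM at 30°C and 163, 214 and 189 CPM at 8°C, a log2 fold change of −0.25 (SE 0.24, interval −0.77 to 0.28, edgeR adjusted p = 0.483). *Cebpa* had 346, 448 and 453 CPM at 30°C and 413, 543 and 586 CPM at 8°C, a log2 fold change of 0.31 (SE 0.25, interval −0.24 to 0.86, edgeR adjusted p = 0.399). *Ppard* (−0.18, interval −0.63 to 0.28) and *Cebpd* (−0.26, interval −0.86 to 0.33) gave edgeR adjusted p-values of 0.561 and 0.513.

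In *Jmjd1a* HY/HY mice 0 of the 9 genes passed the test between 8°C and 30°C, where 0.254% of all genes did, and DESeq2 also called 0. An unadjusted p under 0.05 was reached by 3 of them, and in 0 of the 9 were the groups free of overlap, against 18.3% of all genes. *Ppara* had 0.542, 0.481 and 1.92 CPM at 30°C and 2.07, 3.68 and 1.78 CPM at 8°C. Replicate 3 at 30°C lay within the cold exposed range, and the log2 fold change was 1.43 (SE 0.50, interval 0.33 to 2.52, edgeR adjusted p = 0.231). *Rxrg* had 10.8, 8.32 and 17.5 CPM at 30°C and 21.7, 17.8 and 15.9 CPM at 8°C, which is 0.60 on the log2 scale (interval 0.05 to 1.15, edgeR adjusted p = 0.299). Without HY/HY replicate 3 at 30°C both passed in edgeR, *Ppara* at 2.30 (adjusted p = 0.0193) and *Rxrg* at 0.95 (adjusted p = 0.0324).

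*Cebpb* in HY/HY mice had 16.3, 23.7 and 34.4 CPM at 30°C and 25.2, 25.2 and 25.6 CPM at 8°C. The cold exposed values lay inside the thermoneutral range, with a log2 fold change of 0.04 (SE 0.28, interval −0.58 to 0.65, edgeR adjusted p = 0.972), so a rise above 0.65 on that scale lies outside the interval. *Rxra* likewise had 154, 166 and 168 CPM at 30°C and 157, 152 and 178 CPM at 8°C, a log2 fold change of −0.00 (interval −0.24 to 0.24, edgeR adjusted p = 0.994). *Cebpd* had 12.4, 15.3 and 8.2 CPM and then 8.28, 6.31 and 6.89 CPM, which is −0.75 (interval −1.34 to −0.15, edgeR adjusted p = 0.246).

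**Figure D2:**
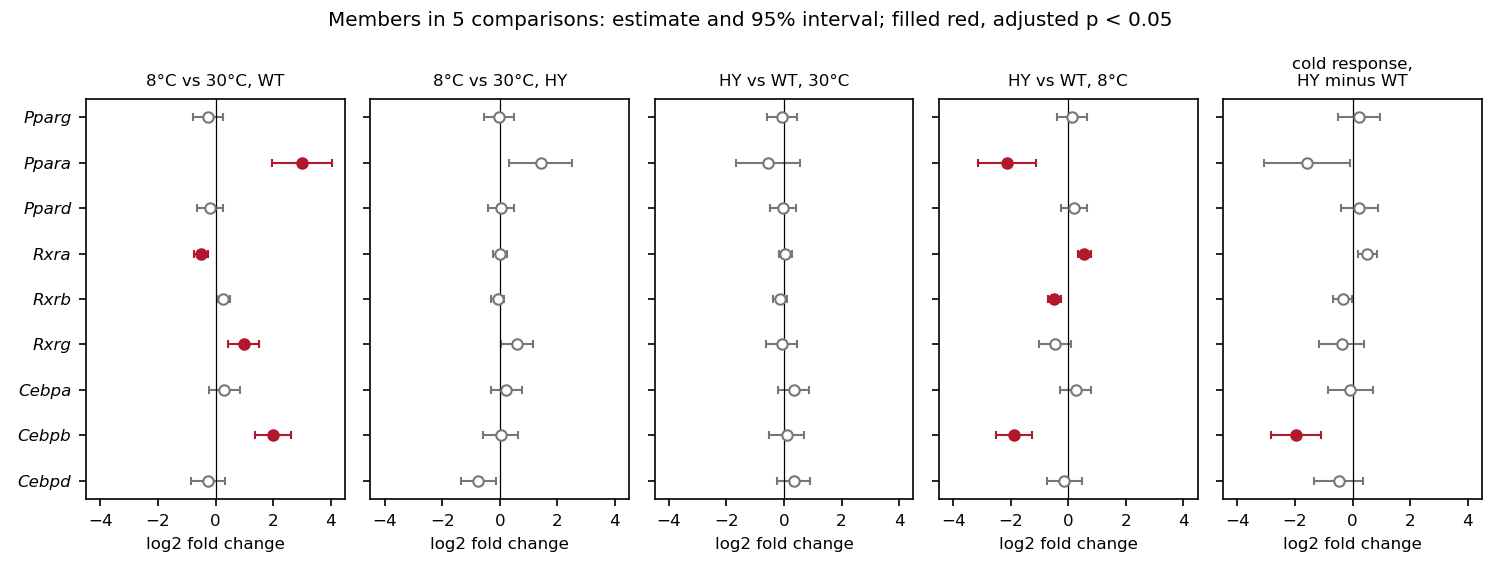
Log2 fold changes (x axes) of the 9 genes with their 95% intervals from edgeR in 5 comparisons, filled red where the adjusted p over 16540 genes is under 0.05 and open otherwise. For cold in wild-type mice 4 genes are filled, for cold in HY/HY mice and for genotype at 30°C 0, for genotype at 8°C 4, and for the difference of the cold responses only *Cebpb*.

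Between the genotypes at 30°C 0 of the 9 genes differed by edgeR, where 1.06% of all genes passed, with 0 at an unadjusted p under 0.05 and 0 by DESeq2. All 9 pairs of groups overlapped. The largest estimates were −0.56 for *Ppara* (interval −1.67 to 0.54, edgeR adjusted p = 0.593), 0.34 for *Cebpd* and 0.33 for *Cebpa*. For *Rxra* the interval ran from −0.19 to 0.29, for *Rxrb* from −0.37 to 0.10, and for *Cebpb* from −0.53 to 0.70.

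At 8°C 4 of the 9 genes differed between HY/HY and wild-type mice, where 7.36% of all genes did. *Ppara* stood at 0.228, *Cebpb* at 0.273 and *Rxrb* at 0.717 times the wild-type level, and *Rxra* at 1.48 times. Thus 3 of 9 were lower against 5.45% of all genes, and 1 was higher against 1.91%. The cold exposed wild-type libraries are part of this comparison and of the first, so the values of both are given side by side and are not independent. The median over the 9 was −0.14, beside 0.01 over all genes tested.

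*Cebpb* was lower in all 3 HY/HY libraries than in any wild-type one (25.2, 25.2 and 25.6 against 54.7, 125 and 98.6 CPM), with a log2 fold change of −1.87 (SE 0.29, interval −2.50 to −1.24, edgeR adjusted p = 0.00357). *Ppara* was likewise lower throughout, at 1.78 to 3.68 against 10.1 to 13 CPM, with a log2 fold change of −2.13 (SE 0.46, interval −3.14 to −1.12, edgeR adjusted p = 0.0181). *Rxra* was higher throughout, at 152 to 178 against 107 to 112 CPM, with a log2 fold change of 0.56 (SE 0.11, interval 0.32 to 0.80, edgeR adjusted p = 0.0118). *Rxrb* was lower throughout, at 49.8, 50.4 and 41.3 against 66.4, 67.4 and 63.6 CPM, with a log2 fold change of −0.48 (SE 0.11, interval −0.72 to −0.25, edgeR adjusted p = 0.0209).

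*Rxrg* was also free of overlap, which made 5 of 9 against 35.4% of all genes, but its difference of −0.46 (SE 0.25) had an edgeR adjusted p of 0.311. *Pparg* (0.14, interval −0.38 to 0.67), *Ppard* (0.19), *Cebpa* (0.25) and *Cebpd* (−0.14) overlapped and gave adjusted p-values from 0.607 to 0.813. Of the 4 calls only that of *Cebpb* held whichever library was left out. Without wild-type replicate 2 or HY/HY replicate 3 at 8°C it was the 1 call left, without wild-type replicate 3 or HY/HY replicate 1 at 8°C it was joined by *Rxra*, and without wild-type replicate 1 at 8°C *Rxrb* alone was lost.

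The difference between the genotypes in the response to cold was tested as an interaction, which 2.24% of all genes passed and 1 of the 9 did. *Cebpb* rose by 1.99 on the log2 scale in wild-type mice and by 0.04 in HY/HY mice, and the difference of −1.96 (SE 0.40, interval −2.83 to −1.09) had an edgeR adjusted p of 0.031. Leaving out single libraries gave adjusted p-values up to 0.09, and the call was lost in 8 of 12 such fits, those without wild-type replicate 1 or 2 at 30°C, wild-type replicate 2 or 3 at 8°C, HY/HY replicate 2 at 30°C, or any 1 HY/HY library at 8°C. The estimate stayed between −2.24 and −1.66. *Rxra* (0.51, SE 0.16), *Ppara* (−1.57, SE 0.69) and *Rxrb* (−0.34, SE 0.15) had unadjusted p-values under 0.05 and adjusted ones of 0.127, 0.309 and 0.312. *Rxrg* gave −0.38 (SE 0.35, adjusted p = 0.663). For *Rxra*, *Ppara* and *Rxrg* a cold response called in wild-type and not in HY/HY mice is therefore not a shown difference between the genotypes.

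**Figure D3:**
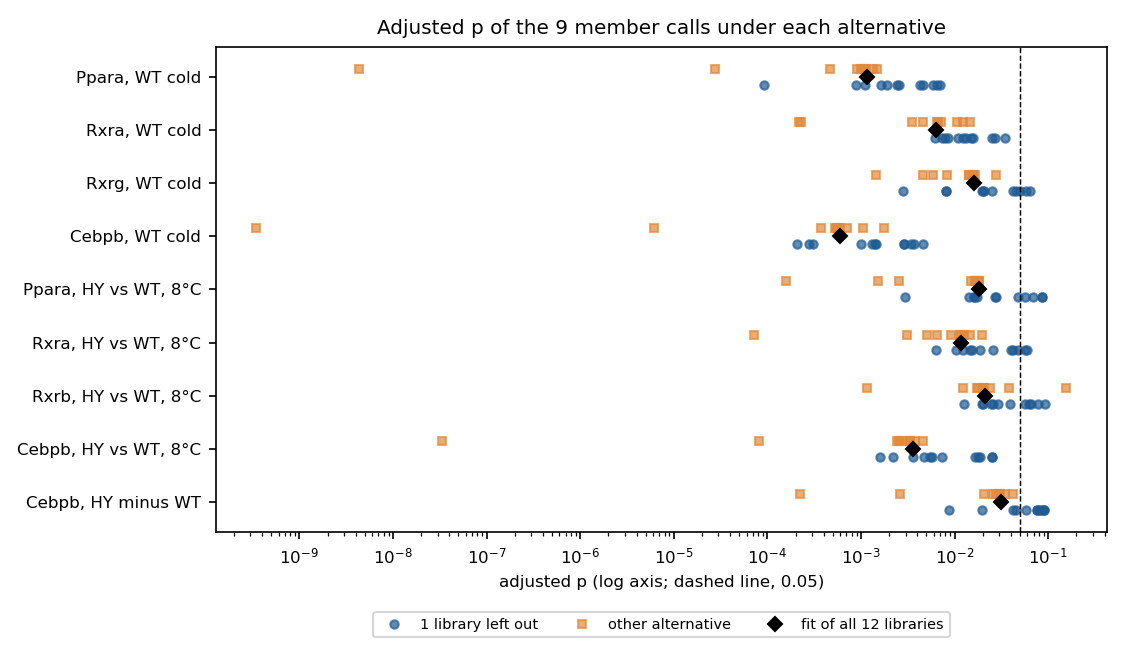
Adjusted p (log axis, dashed line at 0.05) of the 9 calls made among the 9 genes, in the fit of all 12 libraries (black diamonds), with 1 library left out (blue circles) and under the other settings (orange squares). The *Cebpb* and *Ppara* rises in wild-type mice and the *Cebpb* difference at 8°C lie left of the line in every fit, and the other calls except that of *Rxra* in wild-type mice cross it in at least 1.

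Ordered by level, *Ppara* was highest in the wild-type mice at 8°C, then in HY/HY mice at 8°C (2.51 ± 1.02 CPM, n = 3), wild-type mice at 30°C (1.41 ± 0.546) and HY/HY mice at 30°C (0.981 ± 0.814). The last 3 groups overlapped from neighbour to neighbour. *Rxrg* had the same order, at 25.4 ± 0.345, 18.5 ± 2.98, 12.9 ± 3.37 and 12.2 ± 4.77 CPM, and again the cold exposed wild-type group alone was free of its neighbour. For *Rxra* it was the other way about, with 163 ± 7.56, 162 ± 14 and 157 ± 17.4 CPM in 3 groups that overlapped and 110 ± 2.61 CPM in the cold exposed wild-type mice.

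Within each family the shares of RNA per length shifted with these changes. *Pparg* made up 95 ± 0.509% of PPAR RNA in wild-type mice at 30°C and 92.5 ± 0.234% at 8°C, while *Ppara* went from 0.312 ± 0.1% to 2.82 ± 0.241%, so *Pparg* remained the bulk of the family. *Rxra* made up 58.6 ± 1.49% of RXR RNA in wild-type mice at 30°C and 41.1 ± 0.948% at 8°C, with *Rxrb* at 30.1 ± 1.64% and 36.3 ± 1.05% and *Rxrg* at 11.3 ± 1.48% and 22.6 ± 0.37%. In HY/HY mice *Rxra* made up 61.4 ± 2.11% and 58.8 ± 4.79%. *Cebpb* went from 8.64 ± 1.11% to 22.8 ± 4.84% of C/EBP RNA in wild-type mice, and had 7.6 ± 2.74% and 6.69 ± 0.927% in HY/HY mice (SD, n = 3 throughout). The C/EBP shares depend on the short exon length used for *Cebpd*. These shares are a description and were not tested by themselves.

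**Figure D4:**
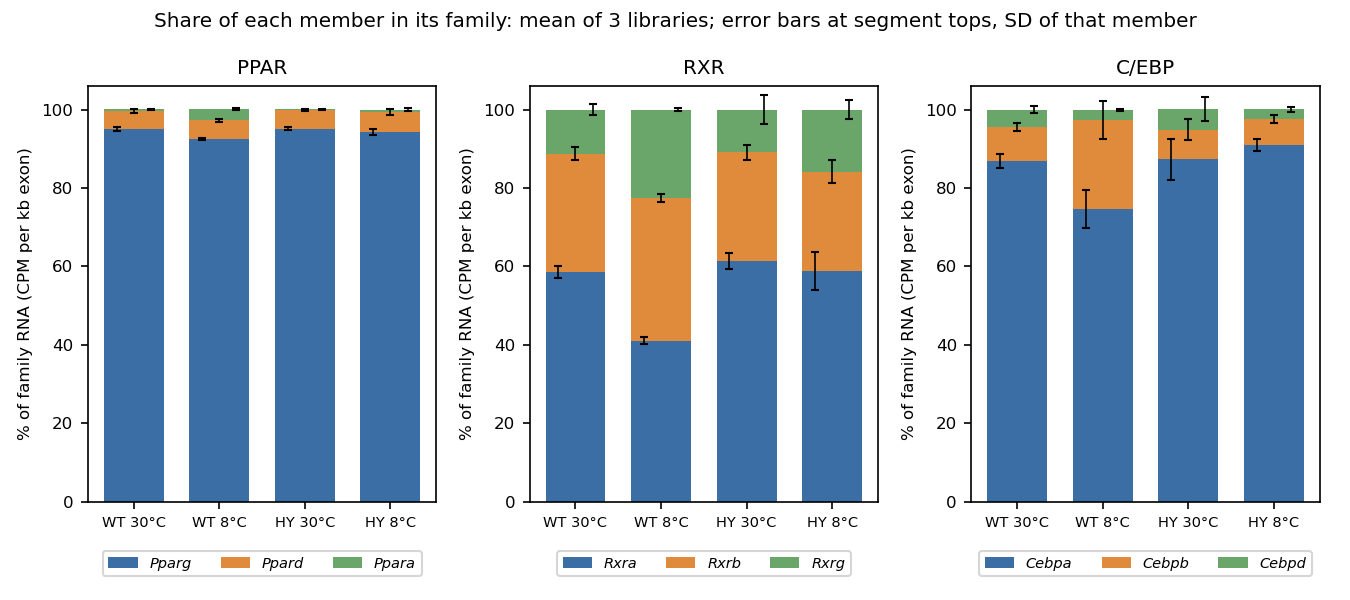
Share (percent, linear axis from 0) of each gene in the summed CPM per kilobase of its family of 3, as means of 3 libraries with the SD of each gene drawn at the top of its segment. In the RXR panel the *Rxra* segment is 41.1% in cold exposed wild-type mice but 58.6% to 61.4% in the other 3 groups, and in the C/EBP panel the *Cebpb* segment is 22.8% there and at most 8.64% elsewhere.

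*Pparg* and *Ppard*, the PPAR genes that passed no test, varied from mouse to mouse inside the groups. In 3 of the 4 groups replicate 3 had the highest *Pparg*, with 301, 274 and 263 CPM in wild-type mice at 30°C and in HY/HY mice at 30°C and 8°C, against 163 to 214 CPM in the other 9 libraries. The same 3 libraries had the highest *Ppard*, at 30.6, 33.4 and 30.5 CPM against 19.2 to 25 CPM. They also had the highest sums of the white fat cell markers, at 28600, 26600 and 25900 CPM against 13400 to 21800 CPM. *Cfd* alone made up 17700, 12000 and 8900 CPM of these 3 sums. The markers *Adipoq*, *Plin1*, *Cidec*, *Cfd*, *Pnpla2* and *Lipe* are also listed below as PPARγ targets, so the sum is not a measure of fat cells apart from PPARγ. The part of fat cell content in the *Pparg* and *Ppard* levels was not tested. *Cebpa* had its highest levels, 697 and 736 CPM, in the 2 of these libraries that came from HY/HY mice.

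Of the genes through which PPARs act, 13 coactivators were measured. *Ppargc1a* and *Ppargc1b*, the PGC-1 coactivators of PPARs and of mitochondrial growth, rose in wild-type mice in the cold by 2.72 (SE 0.35, edgeR adjusted p = 0.000298) and 1.52 (SE 0.26, adjusted p = 0.0018) on the log2 scale, and the arginine methyltransferase gene *Carm1* and the PGC-1-related *Pprc1* fell by 0.44 and 0.61. These calls are 15.4% of the 13 in each direction, near the 13.2% of all genes that rose and the 10.9% that fell. The median of the 13 was −0.03. *Ppargc1a* had 3.97 ± 0.997 CPM in thermoneutral and 26.4 ± 9.16 CPM in cold exposed wild-type mice, and 7.33 ± 2.79 and 10.5 ± 3.52 CPM in HY/HY mice (SD, n = 3). In HY/HY mice in the cold 0 of the 13 passed by edgeR, where only 0.254% of all genes did. DESeq2 also called 0 of the 13, and 1 had an unadjusted p under 0.05. At 8°C *Ppargc1a* (−1.33, adjusted p = 0.0345) and *Ppargc1b* (−1.76, adjusted p = 0.00332) were lower in HY/HY mice by edgeR. They are 15.4% of the 13, against 5.45% of all genes. The *Ppargc1a* call was lost without wild-type replicate 2 or 3 or HY/HY replicate 1 or 3 at 8°C. The interaction was called for *Ppargc1a* alone (−2.19, SE 0.48, edgeR adjusted p = 0.039), and that call was lost in 9 of the 12 fits that left out 1 library.

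Of the genes listed as corepressors *Wwtr1*, which encodes the coregulator TAZ, rose in wild-type mice in the cold (0.65, edgeR adjusted p = 0.00525). In HY/HY mice in the cold 0 of 10 passed by edgeR, where 0.254% of all genes did, 3 had an unadjusted p under 0.05 and DESeq2 called 1. At 8°C *Tbl1x*, which encodes a subunit of a corepressor complex, was higher in HY/HY mice (0.58, edgeR adjusted p = 0.0257), a call lost without any 1 wild-type library or without HY/HY replicate 1 or 3 at 8°C.

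Of 13 further receptors that pair with RXR, 10 were tested and *Nr1h4*, *Nr1i2* and *Nr1i3* were too low. In wild-type mice in the cold 4 rose and 2 fell, which is 40% and 20% against 13.2% and 10.9% of all genes. *Rarb*, a retinoic acid receptor, rose from 2.93 ± 1.56 to 6.9 ± 1.09 CPM (log2 1.23, edgeR adjusted p = 0.0248), and the orphan receptors *Nr4a1* and *Nr4a2* rose by 1.16 and 1.01, whereas the other retinoic acid receptors *Rara* and *Rarg* fell by 0.57 and 0.71 (adjusted p = 0.0176 and 0.00131). The count of 6 became 1 without wild-type replicate 3 at 8°C, 2 without wild-type replicate 2 at either temperature and 3 without wild-type replicate 1 at 30°C. In HY/HY mice in the cold 0 of 10 passed by edgeR, against 0.254% of all genes, with 3 at an unadjusted p under 0.05 and 1 fall by DESeq2. At 8°C *Rarb* (−1.32, adjusted p = 0.0455) and *Nr4a1* (−1.59, adjusted p = 0.0302) were lower in HY/HY mice by edgeR, which is 20% against 5.45% of all genes. Of the 10, 0 were lower without wild-type replicate 2 or 3 or any 1 HY/HY library at 8°C.

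Of the other C/EBP genes *Cebpg* and *Ddit3* were tested and 0 passed in any comparison by edgeR, with *Ddit3* at 0.43 (adjusted p = 0.0904) in wild-type mice in the cold. DESeq2 called 0 of 2 there and 1 lower in HY/HY mice at 8°C. Among 26 other transcription factors of fat cell formation 2 rose and 2 fell in wild-type mice in the cold, which is 7.69% in each direction against 13.2% and 10.9% of all genes, with a median of 0.00. These were *Egr2* (1.88) and *E2f1* (0.86), and *Stat5a* (−0.75) and *Gata3* (−1.61), with edgeR adjusted p-values from 0.0076 to 0.0386. Left-out libraries moved this count of 4 to 1, without wild-type replicate 3 at 8°C, to 2, without wild-type replicate 1 at either temperature, or to 6, without wild-type replicate 3 at 30°C. In the other comparisons edgeR called 0 of 26, with 1 to 7 at an unadjusted p under 0.05 and at most 1 by DESeq2. Of all genes edgeR called 0.254% for cold in HY/HY mice and 2.24% for the interaction. Between the genotypes it called 1.06% at 30°C and 7.36% at 8°C.

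Genes known as targets of each factor were read as 4 lists, chosen with earlier results of these data known. Their counts are therefore a description. Of 27 tested genes listed for PPARα, mostly of fatty acid oxidation, 19 rose and 0 fell in wild-type mice in the cold, with a median log2 fold change of 1.82. Of 10 listed for PPARδ 6 rose and 0 fell (median 1.49), and 3 of those 10, *Slc25a20*, *Acadvl* and *Cpt1a*, are also on the PPARα list. Of 27 listed for PPARγ 8 rose and 1 fell (median 0.54), and of 16 listed for C/EBPs 3 rose and 1 fell (median 0.33). These counts stand against 13.2% of all genes that rose and 10.9% that fell, and an all-gene median of −0.07. Leaving out single libraries kept 18 or 19 PPARα and 6 PPARδ calls, but gave 4 to 10 PPARγ and 1 to 6 C/EBP calls. The PPARγ count was 4 without wild-type replicate 2 at 30°C or 3 at 8°C and 5 without wild-type replicate 2 at 8°C. The C/EBP count was 1 without the first 2 of these, and 2 without wild-type replicate 1 or 2 or HY/HY replicate 1 at 8°C.

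On the PPARα list *Fabp3*, the fatty acid carrier of muscle and brown fat, went from 0.678 ± 0.392 to 953 ± 234 CPM in wild-type mice (log2 10.38, SE 0.73, edgeR adjusted p = 1.65e-05). Its fold rests on 16, 29 and 5 read pairs in the thermoneutral libraries. *Cpt1b*, the muscle form of the enzyme that lets fatty acids into mitochondria, had 1 to 3 read pairs in each wild-type library at 30°C and 60 to 74 at 8°C, and no fold is given for it, as at most 3 pairs were counted in each thermoneutral library. *Acaa2*, the last enzyme of mitochondrial β-oxidation, had 119, 110 and 172 CPM at 30°C and 1110, 1120 and 1050 CPM at 8°C (log2 3.03, SE 0.23, edgeR adjusted p = 1.71e-05). On the PPARδ list *Pdk4*, which spares glucose by switching off pyruvate dehydrogenase, went from 37.3 ± 13 to 796 ± 210 CPM (log2 4.42, edgeR adjusted p = 9.27e-05), and the carnitine carrier *Slc25a20* and the acyl-CoA dehydrogenase *Acadvl* rose by 2.76 and 2.51.

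On the PPARγ list the leading rises were of *Gpd1* (2.38, edgeR adjusted p = 0.000557), *Agpat2* (2.03) and *Fabp5* (2.03), of which the first 2 supply the backbone and a step of triglyceride synthesis, and the fall was of *Cfd* (−0.97, adjusted p = 0.0332), the adipokine adipsin. Of its classical fat cell genes *Fabp4* (0.75), *Plin1* (0.28), *Lpl* (0.54) and *Adipoq* (−0.58) did not pass, with adjusted p-values from 0.184 to 0.492. They are named after their values were seen. On the C/EBP list the lipogenic desaturase *Scd1* (1.60), the acute phase gene *Orm1* (1.17) and the insulin-responsive glucose carrier *Slc2a4* (0.91), which is also on the PPARγ list, rose, and *Lep*, which encodes leptin, fell (−1.38, edgeR adjusted p = 0.0494).

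In HY/HY mice in the cold 4 of the 27 PPARα genes rose and 0 fell by edgeR (median 0.78), against 0.181% of all genes that rose. *Fabp3* rose by 9.02 (edgeR adjusted p = 0.00103), a fold that rests on only 2, 6 and 5 read pairs at 30°C. *Slc25a20* rose by 1.63 (edgeR adjusted p = 0.022) and was also the 1 call on the PPARδ list, whose median was 0.64. DESeq2 called 13 and 4 genes of these lists, and without HY/HY replicate 3 at 30°C edgeR called 15 and 4. The PPARδ call was lost without wild-type replicate 1 or 2 at 8°C, HY/HY replicate 1 or 2 at 30°C or any 1 HY/HY library at 8°C. On the PPARγ list 0 passed by edgeR (5 at an unadjusted p under 0.05, 2 by DESeq2, median 0.39) and on the C/EBP list 0 passed (2 unadjusted, 1 by DESeq2, median 0.26), while without HY/HY replicate 3 at 30°C edgeR called 4 and 1. Between the genotypes at 30°C 2 PPARγ genes were higher in HY/HY mice, *Fabp5* (1.70, edgeR adjusted p = 0.0357) and *Pnpla3* (1.13, adjusted p = 0.0263), against 0.568% of all genes. They are named after their values were seen. Leaving out libraries gave 0 to 5 there, with 0 without wild-type replicate 1 or 2 or HY/HY replicate 3 at 30°C or wild-type replicate 2 or 3 at 8°C. On the PPARα, PPARδ and C/EBP lists edgeR called 0 at 30°C, with 4, 3 and 4 at an unadjusted p under 0.05 and 1, 3 and 3 by DESeq2.

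**Figure D5:**
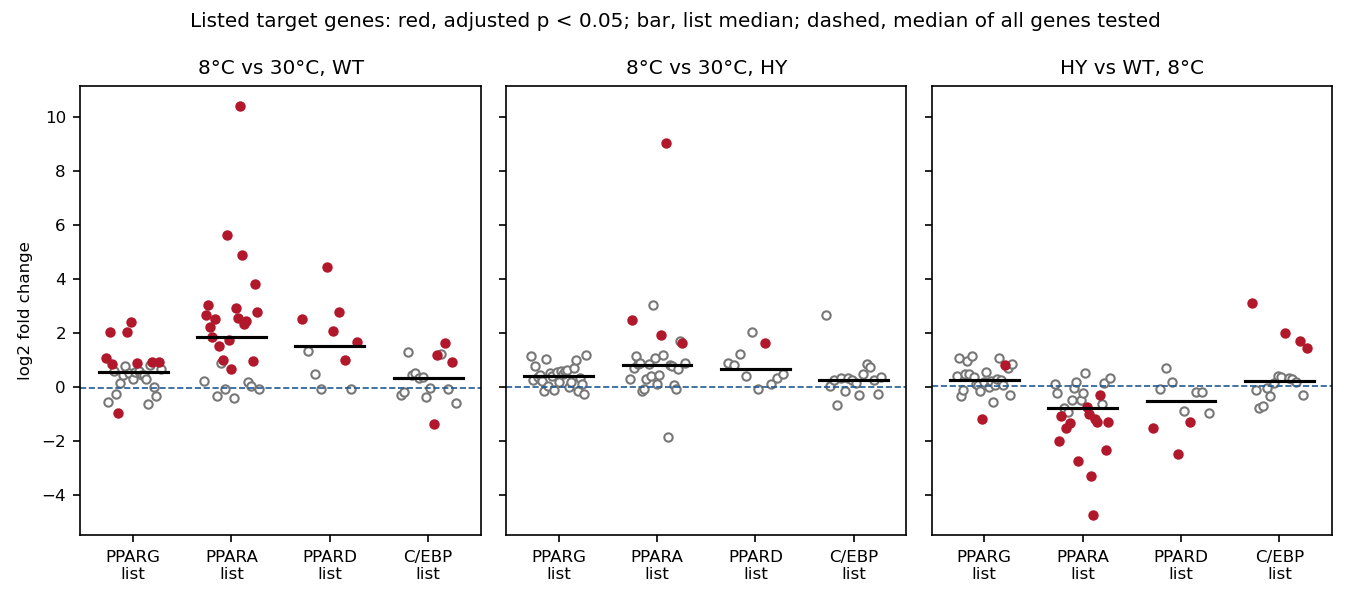
Log2 fold changes (linear axis) of the genes listed for PPARγ, PPARα, PPARδ and C/EBPs in 3 comparisons, filled red where the edgeR adjusted p is under 0.05, with the list median (bar) and the median of all 16540 genes (dashed). The PPARα median is 1.82 for cold in wild-type mice, 0.78 for cold in HY/HY mice and −0.81 for HY/HY against wild-type mice at 8°C.

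At 8°C 14 of the 27 PPARα genes were lower in HY/HY than in wild-type mice and 0 were higher (median −0.81), against 5.45% and 1.91% of all genes. Single libraries left out gave 8 to 16, with 8 or 9 without wild-type replicate 2 or 3 or any 1 HY/HY library at 8°C. *Fabp3* was lower by 3.33 on the log2 scale (94.9 ± 66.7 against 953 ± 234 CPM, edgeR adjusted p = 0.00357) and *Acaa2* by 2.03 (267 ± 16.1 against 1090 ± 36.2 CPM, adjusted p = 0.000893). On the PPARδ list 3 of 10 were lower, *Pdk4* (−2.49), *Acadvl* (−1.53) and *Slc25a20* (−1.29), with a median of −0.55. On the PPARγ list *Gpd1* was lower (−1.21, edgeR adjusted p = 0.0447) and *Retn*, which encodes resistin, was higher (0.80, adjusted p = 0.0362). The count of 2 became 0 without any 1 wild-type library or HY/HY replicate 1 or 3 at 8°C, 1 without wild-type replicate 1 at 30°C or HY/HY replicate 2 at 8°C, and 6 without HY/HY replicate 3 at 30°C.

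The C/EBP list had 4 genes higher in HY/HY mice at 8°C and 0 lower, against 1.91% and 5.45% of all genes, with a median of 0.22. *Agt*, which encodes angiotensinogen, had 24.4, 14.3 and 31.5 CPM in HY/HY mice against 0.668, 1.66 and 5.77 CPM (log2 3.08, SE 0.67, edgeR adjusted p = 0.0185). *Lep* (1.99, edgeR adjusted p = 0.0265), *Serpina3n* (1.68, adjusted p = 0.0406) and *Steap4* (1.42, adjusted p = 0.0395) were the others, the last named after its value was seen. The count was 0 without wild-type replicate 1 or 2 or HY/HY replicate 1 or 3 at 8°C, 1 without wild-type replicate 3 at 8°C and 2 without wild-type replicate 1 at 30°C. In the same mice *Cebpb* was lower and *Cebpa* did not pass.

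In the interaction the cold response of 6 PPARα genes was lower in HY/HY than in wild-type mice and that of 0 was higher (median −0.97), against 2.07% and 0.169% of all genes. *Acaa2* (−2.33, SE 0.30, edgeR adjusted p = 0.00788) and *Hadhb* (−1.68, SE 0.34, adjusted p = 0.0304) were among them, with *Acadvl* (−1.63, adjusted p = 0.0218) shared with the PPARδ list. Left-out libraries gave 1 to 9, with 1 without wild-type replicate 1 at 30°C or HY/HY replicate 1 or 3 at 8°C, 2 or 3 without replicate 2 of the wild-type mice at either temperature, wild-type replicate 3 at 8°C or HY/HY replicate 2 at 8°C, and 9 without wild-type replicate 3 at 30°C. DESeq2 called 10. On the PPARγ and C/EBP lists edgeR called 0, with 6 and 3 at an unadjusted p under 0.05 and 4 and 1 by DESeq2.

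Markers of other states and cells are set beside these results. For their counts, 13.2% of all genes rose and 10.9% fell in wild-type mice in the cold. At 8°C 1.91% of all genes were higher and 5.45% lower in HY/HY than in wild-type mice. The summed level of 12 glucocorticoid-responsive genes was 1160 to 1910 CPM in the wild-type mice at 8°C, where *Cebpb* was high, and 722 to 1250 CPM in the other 9 libraries, but *Pdk4* alone made up 567 to 980 CPM there against 18.8 to 189 CPM elsewhere. The estimates of 6 of the 12 were above and of 6 below 0, with a median of −0.10. Of the 12, *Pdk4*, *Dusp1* (1.87) and *Sgk1* (0.90) rose and 0 fell. Of 16 immediate early genes 3 rose (*Egr2*, *Dusp1* and *Nr4a1*) and 2 fell (*Btg2* by 0.81 and *Socs3* by 1.03). These are 18.8% and 12.5%, near the shares of all genes. The 16 summed to 475 to 624 CPM in wild-type and 343 to 481 CPM in HY/HY mice at 8°C. Endothelial markers summed to 894 to 1150 CPM in cold exposed wild-type mice, against 460 to 875 CPM elsewhere, and 4 of 6 rose in wild-type mice, or 1 without wild-type replicate 2 at 30°C or wild-type replicate 1 or 2 at 8°C. Macrophage markers, which as a group are of cells that also use PPARγ and C/EBPβ, summed to 164 to 170 CPM in wild-type and 258 to 356 CPM in HY/HY mice at 8°C, where *Cd163* (1.30), *Mrc1* (1.22) and *Csf1r* (1.18) of 8 were higher. That count of 3 became 1 without wild-type replicate 3 or HY/HY replicate 1 at 8°C, and 6 and 5 without HY/HY replicates 1 and 3 at 30°C. The white fat cell markers summed to 13400 to 16400 CPM in wild-type and 19400 to 25900 CPM in HY/HY mice at 8°C, without overlap, with 8 of 8 estimates above 0 (median 0.49) and 1, that of *Lep*, past the test. In wild-type mice in the cold 6 of 7 muscle genes were lower, but 0 were by DESeq2, without the muscle-rich library or without any 1 wild-type library at 8°C. Of 8 mammary genes 3 were lower, and 0 without wild-type replicate 1 or 2 at 30°C or any 1 wild-type library at 8°C. Of 8 progenitor genes 1 was higher and 1 lower, which is 12.5% each and near the shares of all genes. Of these 8, 0 passed without wild-type replicate 2 or 3 at 30°C, wild-type replicate 1 or 3 at 8°C or HY/HY replicate 1 at 8°C. Of 7 lymph node and 4 erythrocyte genes 0 passed by edgeR or DESeq2, with 2 and 1 at an unadjusted p under 0.05. The part of these cells and states in the results above was not tested.

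The genes whose pattern over the 12 libraries was most like that of a member, among 14349 compared by Pearson's r of log2 CPM, are given as a description without a test, since the libraries fall into groups by temperature and genotype and share depth and scaling. For *Ppara* they were the mitochondrial ribosomal RNA genes *mt-Rnr1* (r = 0.988) and *mt-Rnr2* (0.971) and the gene *Myeov2* (0.967). *mt-Rnr1* went from 561 ± 169 to 4330 ± 759 CPM in wild-type mice in the cold, and had 389 ± 219 and 930 ± 180 CPM in HY/HY mice at 30°C and 8°C. For *Cebpb* they were *Ndufab1* (0.961), *Sdhaf1* (0.96) and *Aes* (0.957), the first 2 of which act in respiratory complexes. For *Rxrg* they were *Lzic* (0.97), the carnitine acetyltransferase *Crat* (0.97) and *Tbc1d20* (0.969).

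For *Rxra*, whose level was lowest in cold exposed wild-type mice, the genes most alike were *Ap3m2* (0.943), *Ggt5* (0.942) and *BC017158* (0.941), and for *Rxrb* they were *Tarbp2* (0.952), *Eml1* (0.946) and *1810043H04Rik* (0.942). For *Cebpa* they were *Osbpl1a* (0.96), *1100001G20Rik* (0.941) and *Plin1* (0.937), the coat protein of the fat droplet. *Ppard* went with *Aamp* (0.956), *Grina* (0.955) and *Gdf5* (0.933), and *Pparg* with 2 genes that had no symbol of their own and with *Slc25a38* (0.904). *Cebpd* had the weakest likenesses, to *2310016C08Rik* (0.899), *Kcnh3* (0.875) and *Rpl22l1* (0.849).

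The genes lie apart in the genome (GRCm38.p6, whole gene spans). *Pparg* is at chr6:115360879-115490404, *Ppara* at chr15:85734910-85806851 and *Ppard* at chr17:28232754-28301469. *Rxra* is at chr2:27676445-27763319, *Rxrb* at chr17:34031812-34038403 and *Rxrg* at chr1:167598362-167639623. *Cebpa* is at chr7:35119293-35121928, *Cebpb* at chr2:167688915-167690432 and *Cebpd* at chr16:15887286-15889545. For 2 of them the strand of the reads matters. *Cebpb* is overlapped in part by an opposite-strand gene, and counting without strand kept only 49.1% to 58.2% of its sense-strand pairs. Its 3 calls were the same with that counting. At *Cebpd* 27 to 129 pairs per library lay on the opposite strand, 25.1% to 50.5% of its own count, where the annotation has the end of a neighbouring gene.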

How the data were processed

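RNA was extracted from scWAT of 12 mice, 3 per genotype and temperature, and each library comes from 1 mouse. The authors trimmed the reads with fastp after FastQC, used STAR for alignment to mm10, and deposited its unnormalised read pair counts per gene (FastQC version not given). Here the column of the sense strand, 95.5% to 96.2% of counted pairs, was used. The 4 rows that name no gene were kept out: unaligned pairs were 25.1% to 28.8% of all, multi-mapped 26.7% to 32.2%, outside genes 1.99% to 3.2% and ambiguous 0.93% to 1.1%.

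Symbols were matched for 32589 of the 55401 gene identifiers, and 2645 that share a symbol were left as identifiers. Counts were filtered with filterByExpr, scaled by TMM and tested by edgeR's quasi-likelihood F test (R 4.3.3, edgeR 4.0.16, limma 3.58.1) over all 12 libraries with 4 group means and 8 residual degrees of freedom, the common biological coefficient of variation being 20.7%. A gene was called at a Benjamini-Hochberg adjusted p under 0.05 over 16540 genes, which covers every adjusted p printed. CPM use TMM library sizes. Standard errors are the log2 fold change over the square root of F. Exon lengths are from GENCODE M1, an mm9 annotation used for lengths only, and coordinates and promoters from RefSeq GRCm38.p6. The edgeR steps were tested on simulated data.

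The 9 genes were given by name, and the lists and tests were chosen with earlier results of these data known. Named genes were the 3 largest changes per direction among called list genes averaging 10 or more counts; exceptions are said. Alternatives were DESeq2 1.42.0, RLE factors, library totals, mitochondrial genes left out of the sizes, other filters and thresholds, both strands, robust dispersion, the libraries of a comparison alone, a replicate block and each library left out. A result on 1 list gene is not reported here.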

Additional observations from a re-analysis of the deposited data

Results flagged for a closer look

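The following genes had a cold response in HY/HY mice that differed from that of wild-type mice in edgeR's interaction test, given as the HY/HY minus the wild-type log2 fold change. Among the 9 factors this was *Cebpb* (−1.96). Among the coactivators it was *Ppargc1a* (−2.19). Of the PPARα list *Acaa2* gave −2.33, *Acadvl* −1.63, *Hadha* −1.55, *Hadhb* −1.68 and *Acot2* −1.62. *Fgf21* gave −6.77, a fitted value that rests on few read pairs. It had only 2, 3 and 3 in the cold exposed HY/HY libraries and 1 to 5 in the thermoneutral wild-type ones. The thermoneutral HY/HY libraries had 6, 45 and 4, so 1 library holds most of that group's read pairs. Of the thermogenic markers *Cox7a1* gave −3.78 and *Otop1* −3.68. They are 2 of 6, against 2.07% of all genes that were lower. Leaving out single libraries gave 1 to 4 calls among these 6. The count was 1 without wild-type replicate 1 at 30°C or HY/HY replicate 1 or 3 at 8°C.

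In the column of the opposite strand, which the comparisons do not use, *Cebpd* had from 27 to 129 read pairs per library. Groups of 3 libraries are too small for the test of single outlying samples, which was not run.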

How the results depend on the processing

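Over the 9 genes and 5 comparisons, 981 alternative values were computed. Of these 950 stayed on their side of the threshold, and 22 lost and 9 gained a call. The sign changed in 41 values of 18 results, 0 of them called in either fit. Between the genotypes at 8°C the 4 calls became 2 with a limit on the fold added and 1 at an adjusted p under 0.01. The 1 interaction call became 2 with DESeq2 or with library totals, which added *Rxra* (0.49 and 0.71), and 0 at an adjusted p under 0.01. Leaving out each library gave 3 to 5 calls for cold in wild-type mice, 0 to 2 for cold in HY/HY mice, 0 between genotypes at 30°C, 1 to 4 at 8°C and 0 to 1 for the interaction. With library totals *Pparg* (−0.57, edgeR adjusted p = 0.0243) and *Ppard* (−0.51, adjusted p = 0.0188) also fell in wild-type mice, *Rxrb* there was −0.06 in place of 0.27, and *Rxrb* at 8°C lost its call (−0.34, adjusted p = 0.157). That scaling moved the median of all genes from −0.07 to −0.41 in wild-type mice in the cold. *Rxrb* passed there with DESeq2 (0.31, adjusted p = 0.041), and *Rxrg* passed at 8°C when only the libraries of that comparison were fitted (−0.44, edgeR adjusted p = 0.0393). The cause of these changes was not tested. The interaction takes all 12 libraries, so no fit to the libraries of the comparison alone was added for it.

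The replicate numbers were not shown to pair the mice: 11 of 18 same-number pairs of libraries correlated over 0.1, from −0.07 to 0.35. With the replicate block the members called were 4, 0, 0, 4 and 1 as without it, while calls over all genes were 4794, 172, 611, 1632 and 526 in place of 3990, 42, 175, 1217 and 370. DESeq2 called 284 higher and 156 lower of all genes for cold in HY/HY mice in place of 30 and 12, 437 and 488 between genotypes at 30°C in place of 94 and 81, and 95 and 714 for the interaction in place of 28 and 342. With library totals the higher and lower calls were 1309 and 5685 in place of 2190 and 1800 for cold in wild-type mice, 734 and 575 in place of 316 and 901 at 8°C, and 43 and 188 for the interaction. Fits to the libraries of a comparison alone called 0 genes for cold in HY/HY mice and 0 between genotypes at 30°C, and 1042 higher and 1544 lower at 8°C. Counts over the lists moved by over 1.5 times in 360 of 2180 alternatives, which were chosen after seeing the data. At 3 mice per group, the intervals given limit what can be told.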
